A study of Mus musculus with 7 samples.

Results

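Secreted antimicrobial proteins are the soluble first line of host defence in nasal mucus. The 10 genes described here encode such proteins: *Ltf*, *Lpo*, *Dmbt1*, *Slpi*, *Wfdc2*, *Lyz1*, *Camp*, *Lcn2*, *Defb1* and *Reg3g*. They were chosen by name, with earlier results of these data known. Every array probe whose RefSeq transcript belongs to 1 of them was taken. That gave 12 probes, with 1 probe for each of 8 genes and 2 probes for each of *Camp* and *Wfdc2*, out of 20664 genes or transcripts tested. On all 7 arrays, each of the 12 probes gave a signal well above background with either dye, and no spot was saturated.

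These proteins are made by serous cells of the submucosal glands, by surface epithelium and by neutrophils. Some starve microbes of iron, some make toxic oxidants or cut the bacterial wall, some break membranes, and others clump bacteria or hold proteases in check. In airway epithelium, interleukin-17, interleukin-1 and interleukin-6 signalling and the C/EBP and NF-kB factors are known inducers of several of them.

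The arrays compared RNA of the nasal cavity, taken in the study as septum and turbinate, of female BALB/c mice that inhaled diesel exhaust particles (DEPs) with that of control mice. The mice, 32 in the series, were 6 weeks of age, and the exposed groups breathed nebulised DEPs at 100 µg/m3 for 1 h a day on 5 days a week, while controls, per the study's methods, received the saline vehicle. Each array carried DEP RNA in Cy5 and control RNA in Cy3, on 4 arrays for the 4-week exposure and 3 for the 8-week one, labelled as replicates. How many mice stand behind an array, and whether control RNA was pooled, is not given in the sources used here, so the p-values measure only the spread between these arrays.

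No array had its dyes swapped, so a constant dye preference of a probe cannot be told apart from an effect of DEPs at either time, although it cancels in the difference between times. Each exposure time had a slide of its own, and an effect of the slide cannot be told apart from one of time. All 12 markers of nasal tissue, among them those of olfactory neurons (*Omp*, *Gnal*), ciliated cells (*Foxj1*) and odorant-binding proteins (*Obp1a*), were well above background. That limit was passed by 18601 to 25069 probes per array for DEP RNA and by 16985 to 26927 for control RNA. Log2 ratios correlated over all probes tested between 0.44 and 0.49 among the 4-week arrays, between 0.71 and 0.88 among the 8-week arrays, and between 0.086 and 0.29 across the times.

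The promoters of the gene with the largest ratio and of the genes that were lower at both times are shown because DEPs carry ligands of the aryl hydrocarbon receptor and oxidants, and because C/EBP factors are known inducers of this group. Each runs 5′ to 3′ on the strand of its gene, from 250 bases before to 50 bases after the start, in RefSeq coordinates of GRCm38.p6. Capitals mark matches, on either strand, of the core of the xenobiotic response element (GCGTG), of the antioxidant response element (TGACNNNGC) and of a C/EBP site (TTNNGNAA).
Lpo, chr11:87826065-87826364, minus strand: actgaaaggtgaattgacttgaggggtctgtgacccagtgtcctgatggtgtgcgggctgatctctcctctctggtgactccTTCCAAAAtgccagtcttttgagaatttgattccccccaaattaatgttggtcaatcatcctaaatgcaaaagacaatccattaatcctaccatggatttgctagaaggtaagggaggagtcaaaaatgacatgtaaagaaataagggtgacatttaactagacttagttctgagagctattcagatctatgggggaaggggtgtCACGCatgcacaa
Slpi, chr2:164356458-164356757, minus strand: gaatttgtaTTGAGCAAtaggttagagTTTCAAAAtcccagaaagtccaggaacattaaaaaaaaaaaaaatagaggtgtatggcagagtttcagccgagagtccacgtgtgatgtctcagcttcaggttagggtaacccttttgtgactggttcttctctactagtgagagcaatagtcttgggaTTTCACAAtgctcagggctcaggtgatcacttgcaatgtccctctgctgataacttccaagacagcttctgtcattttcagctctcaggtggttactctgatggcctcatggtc
Camp, chr9:109849407-109849706, minus strand: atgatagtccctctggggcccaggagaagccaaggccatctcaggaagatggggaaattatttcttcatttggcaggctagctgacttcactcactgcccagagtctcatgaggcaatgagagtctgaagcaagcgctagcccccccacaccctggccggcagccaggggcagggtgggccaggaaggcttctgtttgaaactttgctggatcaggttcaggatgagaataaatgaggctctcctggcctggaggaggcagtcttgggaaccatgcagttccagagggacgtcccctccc
The *Lpo* window held 1 xenobiotic element core and 1 C/EBP match, the *Slpi* window held 3 C/EBP matches, and the *Camp* window held none of the letters searched. Promoters were found for 8 of the 10 genes. The xenobiotic core occurred in 2 of these 8 (*Lpo* and *Wfdc2*) and in 32.4% of all 32851 promoters, the antioxidant element in 1 (*Lyz1*) and in 12.4% of all, and the C/EBP letters in 6 and in 40.7% of all. A match is a description of the letters, and binding was not measured.

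After 4 weeks, 5 of the 10 genes were called higher in DEP tissue (*Lpo*, *Dmbt1*, *Lyz1*, *Defb1* and *Wfdc2*) and 2 lower (*Slpi* and *Camp*), from limma with a Benjamini-Hochberg adjusted p not above 0.05 over all probes tested. Over all genes, 38.1% were called at 4 weeks, 21.7% higher and 16.4% lower. After 8 weeks, 4 of the 10 were called higher (*Reg3g*, *Dmbt1*, *Ltf* and *Lpo*) and the same 2 lower, against 37.3% of all genes called, 20.4% higher and 16.9% lower. The study's own thresholds ask for an unadjusted p no higher than 0.01 and a change of 2-fold or more. By these, *Lpo* was higher and *Slpi* lower at 4 weeks, where 0.934% of all genes were higher and 0.368% lower (1.30% in all). At 8 weeks *Camp* alone passed, as lower, where 2.10% of all genes were higher and 0.847% lower (2.94% in all). The median log2 ratio of the 10 was 0.29 at 4 weeks and 0.13 at 8 weeks, beside 0.00 and 0.01 over all genes. The study had already listed *Lpo* and *Slpi* from these same arrays, so their values here are not independent evidence.

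**Figure D1:**
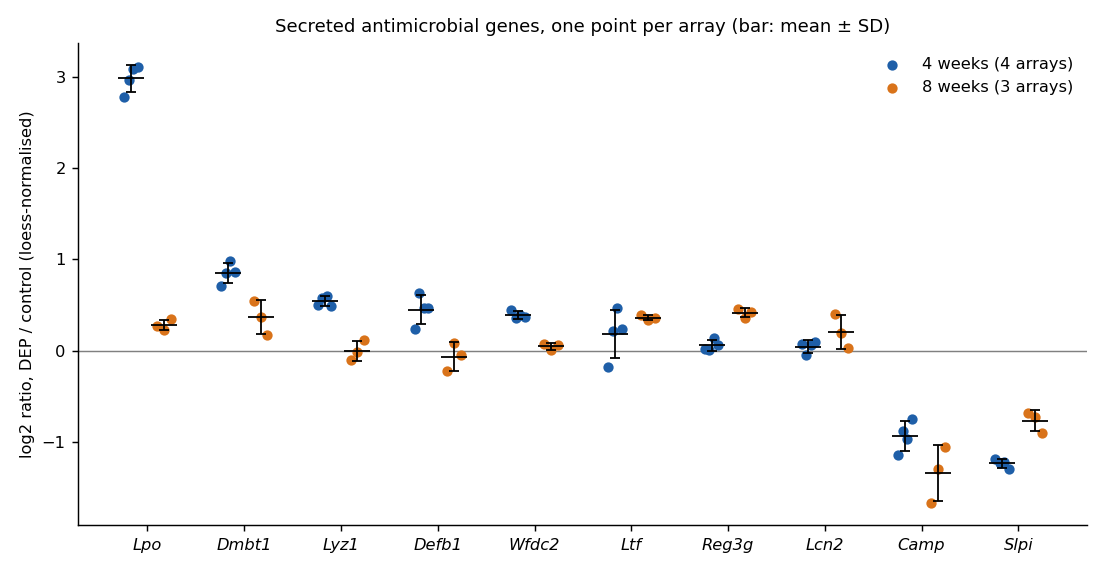
Log2 ratio of DEP to control RNA (y axis, loess-normalised) for the 10 genes (x axis, ordered by their 4-week mean), with a point for each array, blue for 4 weeks (4 arrays) and orange for 8 weeks (3 arrays), and bars for the mean ± SD. *Lpo* stands between 2.78 and 3.10 at 4 weeks and between 0.23 and 0.34 at 8 weeks, and *Slpi* and *Camp* are below 0 on every array.

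Among the enzymes, *Lpo* at 4 weeks showed the largest change of the 10 genes. It encodes lactoperoxidase, which uses hydrogen peroxide to oxidise thiocyanate into an antimicrobial product (GRCm38.p6 chromosome 11, 87806428 to 87826114). On the 4-week arrays its log2 ratio of DEP to control was 2.78, 2.96, 3.08 and 3.10. On the 8-week arrays the log2 ratio was 0.27, 0.23 and 0.34. *Lpo* was thus higher in DEP tissue on all 7 arrays, and the lowest 4-week array stood far above the highest 8-week array. The 4-week mean of 2.98 ± 0.062 (SE) is 7.90-fold, with an adjusted p of 1.65e-07, and the 8-week mean of 0.28 ± 0.072 (SE) is 1.22-fold, with an adjusted p of 0.0185. The difference of the log2 ratios, 8 minus 4 weeks, was -2.70 (95% interval -2.92 to -2.48, adjusted p 3.87e-06), and it was called under every alternative run. The 8-week call was lost when any 1 of the 3 arrays of that time was left out (adjusted p 0.0605, 0.0652 and 0.0876 without replicate 1, 2 and 3), and median centring took its log2 ratio to 0.02.

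*Lpo* intensities show in which channel the times parted. In the DEP channel its log2 intensity, scaled between arrays, was 12.07 ± 0.12 (SD, n = 4) at 4 weeks and 8.87 ± 0.063 (SD, n = 3) at 8 weeks. In the control channel the log2 intensity was 9.09 ± 0.051 (SD, n = 4) and 8.59 ± 0.042 (SD, n = 3). The control channel therefore moved by -0.50 between the slides, inside the range of -0.56 to 0.69 that holds all but the outer 5% of genes on each side. The DEP channel moved by -3.20, where that range was -0.57 to 0.90. As in every bulk tissue, more cells that express a gene and more RNA per cell cannot be told apart.

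*Lyz1* encodes a lysozyme, which cuts the peptidoglycan of the bacterial wall (chromosome 10, 117287795 to 117292868). Its log2 ratio was 0.50, 0.58, 0.60 and 0.49 on the 4-week arrays. At 8 weeks the log2 ratio was -0.10, -0.01 and 0.11. All 4-week arrays lay above 0 and above all 8-week arrays, which scattered around 0. The 4-week mean was 0.54 ± 0.051 (SE), a 1.46-fold excess with an adjusted p of 0.000205, and the times differed by -0.54 (95% interval -0.72 to -0.36, adjusted p 0.00203). At 8 weeks the mean was 0.00 (95% interval -0.14 to 0.14, adjusted p 0.997), but it was -0.29 and called lower with median centring (adjusted p 0.0144). *Lyz1* and its neighbour *Lyz2* are nearly identical copies, so cross-hybridisation could not be judged from the files. The probe of *Lyz2*, the lysozyme of macrophages, gave mean log2 ratios of -0.27 at 4 weeks and -0.35 at 8 weeks and was not called at either time.

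Of the 2 iron-withholding proteins, neither was called at 4 weeks. *Ltf* encodes lactoferrin, which binds free iron (chromosome 9, 111019292 to 111042766). Its log2 ratio was -0.17, 0.21, 0.46 and 0.24 on the 4-week arrays and 0.39, 0.34 and 0.36 on the 8-week arrays. The 8-week values were tight and lay inside the wide spread of the 4-week ones, with replicate 1 of 4 weeks as the lone value below 0. The 4-week mean was 0.19 (95% interval -0.03 to 0.40, adjusted p 0.149) and became 0.30 with an adjusted p of 0.0112 without that replicate. The 8-week mean of 0.36 ± 0.11 (SE), 1.29-fold, had an adjusted p of 0.0299, which rose to 0.105, 0.109 and 0.101 when replicate 1, 2 or 3 of that time was left out. The difference between times, 0.18 (95% interval -0.14 to 0.50), did not pass (adjusted p 0.368).

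*Lcn2* encodes lipocalin-2, which binds the siderophores that bacteria use to take up iron (chromosome 2, 32384637 to 32387739). Its log2 ratio was 0.08, -0.05, 0.06 and 0.10 at 4 weeks and 0.40, 0.19 and 0.03 at 8 weeks. The ranges overlapped, and neither mean passed: 0.05 (95% interval -0.10 to 0.20, adjusted p 0.592) and 0.21 (95% interval 0.04 to 0.38, adjusted p 0.0604), with an adjusted p of 0.0299 at 8 weeks when replicate 3 was left out. The sign of both means turned negative with median centring. The intensities of *Lcn2* nevertheless set the slides apart, in both channels alike. Its log2 intensity in the control channel was between 12.13 and 12.30 on the 4-week arrays and between 9.96 and 10.08 on the 8-week arrays. In the DEP channel the log2 intensity was between 12.20 and 12.36 at 4 weeks and between 9.99 and 10.40 at 8 weeks. The difference, 8 minus 4 weeks, was -2.22 (control) and -2.06 (DEP) on the log2 scale, far outside the ranges of all genes given for *Lpo*. Exposed and control tissue share this difference, in which slide, age at sampling and time cannot be told apart.

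**Figure D2:**
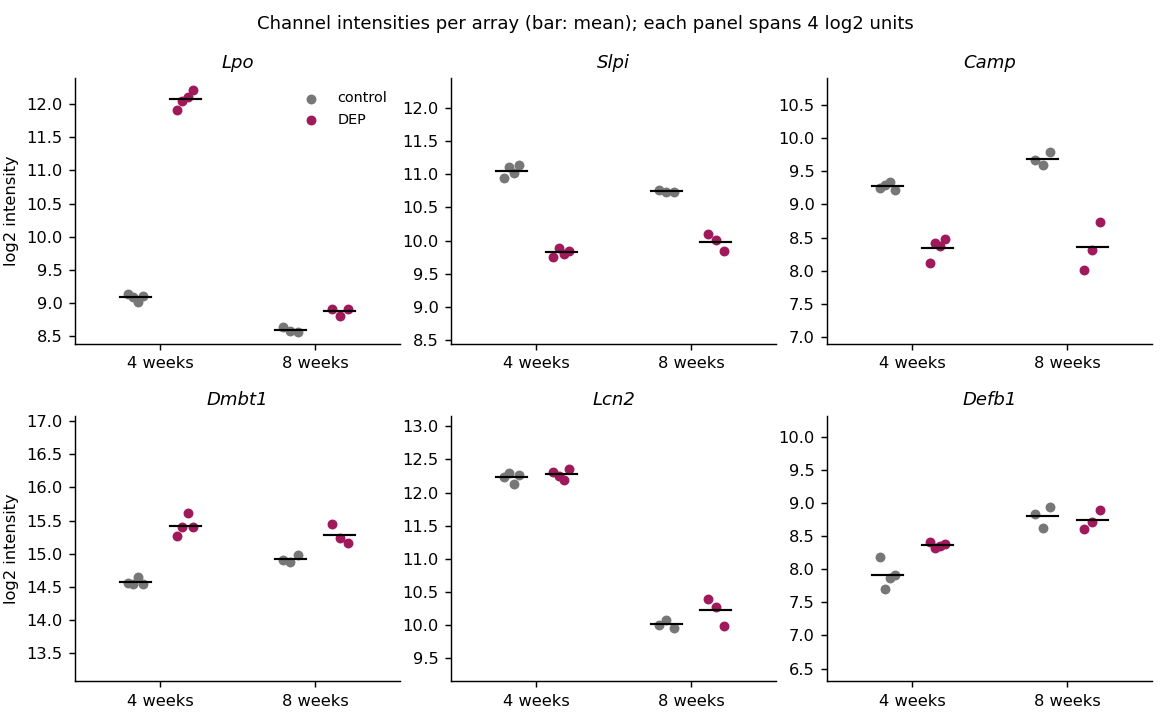
Log2 intensity (y axis, after loess and scaling between arrays) in the control channel (grey) and the DEP channel (magenta) for 6 genes at 4 and 8 weeks (x axis), with a point per array and a bar at the mean. *Lpo* is high in the DEP channel at 4 weeks alone (12.07, against 8.59 to 9.09 in the other 3 groups), *Lcn2* is lower in both channels at 8 weeks, and the *Defb1* control level is 7.91 at 4 weeks and 8.80 at 8 weeks.

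The peptides that break membranes went opposite ways at 4 weeks. *Camp* encodes the precursor of the cathelicidin peptide, stored in neutrophil granules and also made by epithelium (chromosome 9, 109847377 to 109849456). With its brighter probe the log2 ratio was -1.14, -0.87, -0.97 and -0.75 on the 4-week arrays. On the 8-week arrays it was -1.66, -1.29 and -1.05. Every array was well below 0, and the times overlapped. The mean log2 ratio was -0.93 ± 0.10 (SE) at 4 weeks, 1.91-fold lower with an adjusted p of 0.000432, and -1.33 ± 0.12 (SE) at 8 weeks, 2.52-fold lower with an adjusted p of 0.000121.

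The dimmer *Camp* probe gave -0.73, -0.68, -0.70 and -0.48 at 4 weeks and between -1.11 and -0.81 on the 3 arrays of 8 weeks, a smaller change without overlap between the times. The probes gave different calls for the difference between times, -0.40 with an adjusted p of 0.0881 for the brighter one and -0.32 with an adjusted p of 0.0434 for the dimmer one. In intensities, the DEP channel of the brighter probe was level (8.34 at 4 weeks and 8.35 at 8 weeks, log2), while the control channel was 9.28 and 9.69.

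*Defb1* encodes beta-defensin 1, a peptide that epithelia make without a stimulus (chromosome 8, 21776555 to 21795185). Its log2 ratio was 0.24, 0.63, 0.47 and 0.47 at 4 weeks. At 8 weeks the log2 ratio was -0.23, 0.09 and -0.04. The 4-week arrays were all above the 8-week arrays, which lay on both sides of 0. The 4-week mean of 0.45 ± 0.075 (SE), 1.37-fold, had an adjusted p of 0.00303, and the 8-week mean was -0.06 (95% interval -0.26 to 0.14, adjusted p 0.629). The difference of -0.51 (95% interval -0.78 to -0.25) had an adjusted p of 0.0134. Both channels were brighter at 8 weeks, the control channel by 0.89 and the DEP channel by 0.37 on the log2 scale, so the control channel moved more than the DEP channel. The control shift lay outside the range of -0.56 to 0.69 over all genes given for *Lpo*. The DEP shift lay inside its range of -0.57 to 0.90. With median centring *Defb1* was called lower at 8 weeks (log2 ratio -0.33, adjusted p 0.0387).

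*Dmbt1* and *Reg3g* encode proteins that bind to bacterial surfaces. *Dmbt1* is a scavenger-receptor glycoprotein that clumps bacteria (chromosome 7, 131032057 to 131121628). Its log2 ratio was 0.71, 0.86, 0.98 and 0.87 at 4 weeks and 0.55, 0.37 and 0.18 at 8 weeks. All 7 arrays were above 0 and the times did not overlap. The mean was 0.85 ± 0.070 (SE) at 4 weeks, 1.81-fold with an adjusted p of 0.000109, and 0.37 ± 0.081 (SE) at 8 weeks, 1.29-fold with an adjusted p of 0.0104. The difference was -0.49 (95% interval -0.74 to -0.24, adjusted p 0.0125). The 8-week call was lost without replicate 1 (adjusted p 0.0542) or replicate 2 (adjusted p 0.0594) of that time, and with the processed signals its log2 ratio was 0.17 with an adjusted p of 0.0791.

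*Reg3g* encodes a C-type lectin that kills Gram-positive bacteria (chromosome 6, 78466269 to 78468874). On the 4-week arrays the log2 ratio was 0.03, 0.01, 0.14 and 0.07. At 8 weeks the values were 0.46, 0.36 and 0.42. The 4-week arrays were at or just above 0 and all 8-week arrays stood above them. The 4-week mean was 0.06 (95% interval -0.04 to 0.16, adjusted p 0.325), the 8-week mean 0.42 ± 0.052 (SE), 1.34-fold with an adjusted p of 0.000708, and the difference 0.36 (95% interval 0.20 to 0.52, adjusted p 0.00715). With the scanner software's processed signals the 8-week mean was 0.17 (adjusted p 0.0506). No other gene of the Reg family on the list (*Reg1*, *Reg2*, *Reg3a*, *Reg3b*, *Reg3d* and *Reg4*) was bright enough to be tested.

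*Slpi* and *Wfdc2* share the whey acidic protein (WAP) domain. *Slpi* inhibits neutrophil elastase and cathepsin G and also kills bacteria (chromosome 2, 164354070 to 164356507). Its log2 ratio was -1.18, -1.22, -1.22 and -1.30 at 4 weeks. At 8 weeks the log2 ratio was -0.67, -0.73 and -0.89. *Slpi* was lower in DEP tissue on all 7 arrays, and every 4-week array was below every 8-week array. The mean was -1.23 ± 0.051 (SE) at 4 weeks, 2.35-fold lower with an adjusted p of 5.8e-06, and -0.76 ± 0.059 (SE) at 8 weeks, 1.70-fold lower with an adjusted p of 5.98e-05. The difference of 0.47 (95% interval 0.28 to 0.65) had an adjusted p of 0.00408, and with median centring it was 0.25 with an adjusted p of 0.125. The control channel was 11.05 at 4 weeks and 10.75 at 8 weeks in log2 intensity, and the DEP channel 9.82 and 9.98. The times overlapped in the DEP channel and not in the control channel. Both shifts lay inside the ranges of all genes given for *Lpo*.

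*Wfdc2*, which lies near *Slpi* on chromosome 2 (164562715 to 164568510), encodes a secreted WAP protein of airway epithelium. Its brighter probe gave log2 ratios of 0.45, 0.36, 0.39 and 0.37 at 4 weeks and 0.07, 0.01 and 0.07 at 8 weeks. The first were all above the second, and the 8-week arrays were close to 0. The 4-week mean was 0.39 ± 0.042 (SE), 1.31-fold with an adjusted p of 0.00039, and the 8-week mean 0.05 (95% interval -0.06 to 0.16, adjusted p 0.475). The difference was -0.34 (95% interval -0.49 to -0.19, adjusted p 0.00652). The dimmer probe was not called at either time, with a 4-week mean of 0.21 (adjusted p 0.0642) and an 8-week mean of -0.01 (adjusted p 0.966), and its times overlapped.

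Between the times, 7 of the 10 genes had ratios that did not overlap, beside 42.2% of all genes. The difference between times was called for 7 of the 10, *Reg3g* and *Slpi* with a higher log2 ratio at 8 weeks and *Lpo*, *Lyz1*, *Defb1*, *Dmbt1* and *Wfdc2* with a lower one, whereas 30.9% of all genes were called, 14.8% higher and 16.1% lower. By the study's thresholds *Lpo* alone passed, as lower, beside 1.90% of all genes higher and 1.16% lower (3.06% in all). The median difference was -0.37 for the 10 and 0.02 over all genes. For *Dmbt1*, *Lyz1* and the brighter *Wfdc2* probe, the control channel was brighter at 8 weeks by 0.34, 0.35 and 0.39 in log2 intensity. Their DEP channel moved by -0.14, -0.19 and 0.05. All of these shifts lay inside the ranges of all genes given for *Lpo*. The 5 genes called higher at 4 weeks were the 5 called with a lower ratio at 8 weeks. This match is partly built in, because the 4-week mean is subtracted in the difference. Of the 5, *Lpo* and *Dmbt1* were still called higher at 8 weeks.

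**Figure D3:**
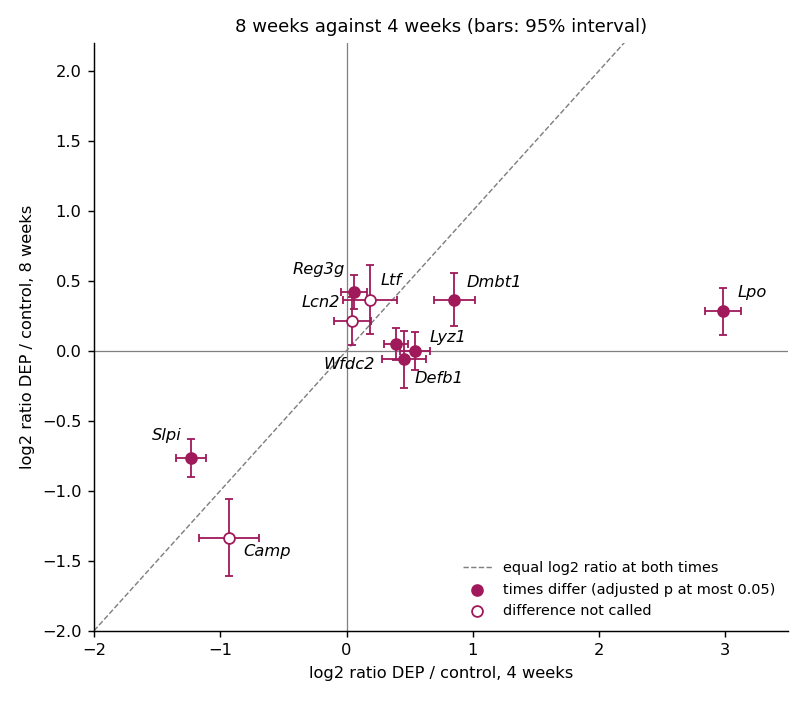
Mean log2 ratio of DEP to control at 8 weeks (y axis) against 4 weeks (x axis) for the 10 genes, with 95% intervals from the limma fit, and filled points where the difference between times had an adjusted p of at most 0.05. *Lpo* lies far to the right of the dashed line of equal ratios (2.98 against 0.28), and *Slpi* and *Camp* lie below 0 on both axes.

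Across the 7 arrays, the log2 ratios most like those of *Lpo* by Pearson correlation, out of 15493 other named genes, were those of the secretoglobins *Scgb1b2* (r = 0.998, mean log2 ratios 3.56 at 4 weeks and 0.50 at 8 weeks) and *Scgb2b24* (r = 0.998, 2.98 at 4 weeks and not well above background on any array of 8 weeks). Next to these came *Cnppd1*, which is not a secretoglobin (r = 0.998, log2 ratios 0.29 and -0.36). For *Slpi* the most like were *Perp* (r = 0.998, log2 ratios -0.42 and 0.28) and *Rhoh* (r = 0.997, 0.20 and 1.29), and for *Camp* *Tex264* (r = 0.989, 0.05 and -0.16) and *Eif3k* (r = 0.986, 0.07 and -0.12). These correlations rest on 7 points that form 2 groups by time and slide, so that they mark little more than the step between the times. For *Lpo*, 1762 genes had an r above 0.9, and for *Lcn2*, which had the fewest, 75 did.

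Genes that work with the members were read from lists by role, after leaving out the members. The counts of each role list stand beside 38.1% of all genes called at 4 weeks, 21.7% higher and 16.4% lower. At 8 weeks they stand beside 37.3% called, 20.4% higher and 16.9% lower. Several lists lie near or below these shares, and no list was tested as a set. Of the peroxidase system, 2 of 6 tested genes were called higher and 3 lower at 4 weeks, and 3 higher and 1 lower at 8 weeks. *Slc26a4*, which encodes the anion exchanger pendrin that can carry thiocyanate, the substrate of lactoperoxidase, was higher at 4 weeks (log2 ratio 0.53, adjusted p 0.000317), with a control signal well above background on 1 of 4 arrays. *Duoxa1*, the maturation factor of the dual oxidase that supplies hydrogen peroxide, was lower (log2 ratio -0.43, adjusted p 0.00415). At 8 weeks *Ano1*, a chloride channel, was higher (0.66, adjusted p 0.000918), and *Mpo*, the neutrophil peroxidase, was lower (-1.26, adjusted p 0.00252).

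Of the other metal-withholding proteins, 1 of 6 was called higher and 3 lower at 4 weeks, and 1 higher and 2 lower at 8 weeks. *S100a8* and *S100a9*, the subunits of calprotectin, which binds zinc and manganese, were lower at both times. The log2 ratio of *S100a9* was -1.71 at 4 weeks (adjusted p 2.29e-06) and -1.80 at 8 weeks (adjusted p 2.36e-06). For *S100a8* the log2 ratios were -0.77 (adjusted p 0.000143) and -1.78 (adjusted p 4.3e-06). The study had already listed *S100a9* among the genes changed on its arrays, so its value here is not independent evidence. Both genes are also counted among the neutrophil markers.

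In the rest of the WAP family, 2 of 10 were called higher and 2 lower at 4 weeks, and 4 higher and 2 lower at 8 weeks. *Wfdc18* was higher at both times (log2 ratios 0.69 and 1.01, adjusted p 0.000657 and 0.000177), *Wfdc1* at 8 weeks (0.81, adjusted p 3.63e-05), and *Wfdc21* was lower at 4 weeks (-0.42, adjusted p 0.00142, control signal well above background on 2 of 4 arrays). Of the other lysozymes and peptidoglycan recognition proteins, 2 of 6 were called higher and 1 lower at 4 weeks, and 2 higher and 0 lower at 8 weeks. *Lyg1*, a goose-type lysozyme, was lower (-1.07, adjusted p 0.000317) and *Pglyrp1*, which binds peptidoglycan, was higher (0.83, adjusted p 0.00478) at 4 weeks, while *Lyzl6* (0.19, adjusted p 0.0186) and *Pglyrp2* (0.19, adjusted p 0.0405, control signal well above background on 1 of 3 arrays) were higher at 8 weeks. The call of *Lyzl6* was lost in 7 of 16 alternative settings (adjusted p up to 0.439) and that of *Pglyrp2* in 8 of 16 (log2 ratio 0.16 to 1.09), in both cases without any 1 of the 3 8-week arrays.

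Of the 16 other defensins and cathelicidin relatives, 6 were bright enough to be tested, of which 0 were called higher and 1 lower at 4 weeks, and 1 higher and 1 lower at 8 weeks. *Defb14* was lower at 4 weeks (log2 ratio -0.64, adjusted p 0.000212), with a DEP signal well above background on 1 of 4 arrays, and its log2 ratio ran from -1.82 to -0.50 over 16 alternative settings. At 8 weeks *Ngp*, a neutrophil granule protein related to cathelicidin, was lower (-0.88, adjusted p 7.85e-05) and *Defb7* was at least 1.72-fold higher (adjusted p 0.0244), a bound against the lowest signal above background because no control array of that time measured it, and the call was lost without any 1 of the 3 arrays. Of the lectins and other bactericidal proteins, 1 of 9 was called higher and 2 lower at 4 weeks, and 5 higher and 0 lower at 8 weeks. *Chil3*, a chitinase-like lectin, changed sign, from -0.50 (adjusted p 0.00109) to 1.03 (adjusted p 5.01e-05), *Ccl28*, a mucosal chemokine with antibacterial activity, was higher at 8 weeks (0.89, adjusted p 0.000185), and *Itln1*, an intelectin that binds microbial sugars, was higher at 4 weeks (0.32, adjusted p 0.00342) and 8 weeks (0.53, adjusted p 0.000554). As a mean over its probes, *Itln1* was not called at either time, with log2 ratios of -0.03 (adjusted p 0.88) and 0.38 (adjusted p 0.0951).

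The cytokines, receptors and regulators known to induce antimicrobial genes were called lower more than higher at 4 weeks, 13 against 2 of 24 tested, beside 16.4% of all genes lower and 21.7% higher, with a median log2 ratio of -0.24. The log2 ratio was -2.08 for *Il6*, which encodes interleukin-6 (adjusted p 1.01e-05), and -1.56 for *Cebpd*, which encodes a C/EBP factor (adjusted p 3.28e-06). Over 16 alternative settings the *Il6* log2 ratio ran from -2.62 to -1.70 and kept its call. The study had already reported *Il6* as lower from its arrays and by qRT-PCR of the same tissue, so its value here is not independent evidence. At 8 weeks 5 were called higher and 2 lower, a smaller share than the 37.3% called over all genes, with a median of 0.03, and *Nfkbia* (0.53, adjusted p 0.00189) and *Socs3* (0.36, adjusted p 0.00112), both feedback inhibitors of such signalling, were higher. With median centring neither was called (0.21, adjusted p 0.066 for *Nfkbia*, and 0.13, adjusted p 0.159 for *Socs3*). Of the receptors, processing enzymes and target proteases of the members, 2 of 11 were called higher and 2 lower at 4 weeks, and 3 higher and 4 lower at 8 weeks. *Slc22a17*, the receptor of lipocalin-2, was lower at 8 weeks (-0.68, adjusted p 0.000769), and *Mmp9*, a neutrophil protease whose gelatinase complex holds lipocalin-2, was lower at 4 weeks (-0.44, adjusted p 0.000895). The *Mmp9* log2 ratio ran from -0.76 to -0.35 over 16 alternative settings and kept its call.

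The counts for markers of the cells that make these proteins stand beside 38.1% of all genes called at 4 weeks and 37.3% at 8 weeks. Of the neutrophil markers, 2 of 14 tested were called higher and 9 lower at 4 weeks, and 1 higher and 7 lower at 8 weeks. Their summed level on the log2 scale was 13.88 to 14.22 in the DEP channel and 14.20 to 14.28 in the control channel at 4 weeks, and 13.92 to 14.23 against 14.14 to 14.20 at 8 weeks. *Camp* is stored in these cells, and the part of the markers in its lower ratio was not tested. The markers *Fcnb*, *Itgb2l* and *Mmp8* were not bright enough to be tested, and no probe was found for *Ly6g*.

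Of the markers of serous glands, 6 of 14 were called higher and 5 lower at 4 weeks, and 4 higher and 8 lower at 8 weeks. Their summed log2 level at 4 weeks was 17.59 to 17.63 in the DEP channel, above the 16.81 to 16.92 of the control channel. At 8 weeks it was 16.28 to 16.45 in the DEP channel, below the 16.85 to 16.92 of the control channel. The log2 ratio was 3.56 at 4 weeks for *Mucl2*, a secreted mucin-like glycoprotein (adjusted p 1.10e-07), and -4.90 at 8 weeks for *Amy1*, an amylase (adjusted p 4.38e-08). *Lpo* is made by such glands. Its high 4-week ratio came with a higher summed level of gland markers, although their median log2 ratio was 0.04. At 8 weeks their summed level was lower and their median was -1.40. *Lpo* was still called higher then (0.28), a call that was lost in 6 of 17 alternative settings. The part of the gland markers in the *Lpo* ratio was not tested.

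Of the markers of secretory epithelium, 3 of 10 were called higher and 5 lower at 4 weeks, and 2 higher and 3 lower at 8 weeks, and the summed log2 level was 17.79 to 18.00 (DEP) and 17.64 to 17.76 (control) at 4 weeks and 17.37 to 17.53 and 17.52 to 17.64 at 8 weeks. *Cyp2f2*, of club cells, had 0.56 at 4 weeks (adjusted p 0.000103) and *Tff2*, of mucous cells, -1.64 at 8 weeks (adjusted p 4.57e-06). Of the macrophage markers, 0 of 10 were called higher and 3 lower at 4 weeks, and 1 higher and 1 lower at 8 weeks, at both times a smaller share than that of all genes. *Cd14* had -1.39 at 4 weeks (adjusted p 5.91e-06) and *C1qb* 0.63 at 8 weeks (adjusted p 0.000307). Their summed log2 level was 11.78 to 12.00 (DEP) and 12.23 to 12.33 (control) at 4 weeks and 11.94 to 12.25 and 12.03 to 12.21 at 8 weeks.

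Squamous epithelium, which lines the front of the nose, also makes *Slpi*. Of its markers, 0 of 14 were called higher and 13 lower at 4 weeks, and 3 higher and 6 lower at 8 weeks. Their summed log2 level was 14.47 to 14.63 in the DEP channel against 14.92 to 15.01 in the control channel at 4 weeks, and 14.65 to 14.88 against 14.83 to 14.93 at 8 weeks. For *Sprr2d*, a cornified envelope gene, the log2 ratio was -2.48 at 4 weeks (adjusted p 1.16e-06) and -1.84 at 8 weeks (adjusted p 4.6e-06). The lower *Slpi* ratio came with a lower summed level of these markers at 4 weeks, whose part in it was not tested.

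Of the 12 nasal tissue markers, 7 were called higher and 0 lower at 4 weeks, and 5 higher and 6 lower at 8 weeks. The log2 ratio was 0.89 at 4 weeks for *Omp*, of mature olfactory neurons (adjusted p 3.9e-05), and 1.50 at 8 weeks for *Obp1a*, an odorant-binding protein of nasal glands (adjusted p 3.56e-05). Their summed log2 level was 18.67 to 18.77 (DEP) and 18.30 to 18.40 (control) at 4 weeks and 18.82 to 18.91 and 18.22 to 18.37 at 8 weeks.

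**Figure D4:**
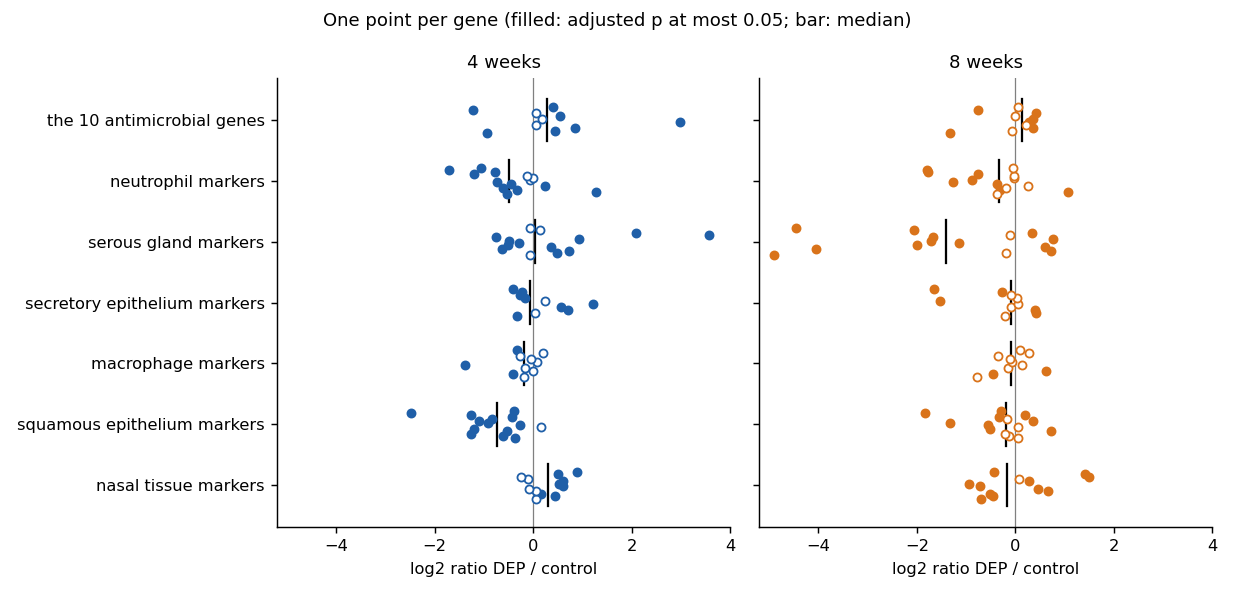
Mean log2 ratio of DEP to control (x axis) at 4 weeks (left) and 8 weeks (right) for the 10 antimicrobial genes and the genes of 6 marker lists (rows), with a point per gene, filled where the adjusted p was at most 0.05, and a bar at the median of each list. At 4 weeks 13 of 14 squamous markers are filled and below 0, and at 8 weeks 8 of 14 serous gland markers are, down to -4.90 for *Amy1*.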

How the data were processed

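Each array of the nasal cavity of DEP-exposed and control mice was deposited as 1 scanner output file of Agilent Feature Extraction 10.10.1.1. Per the file headers, its median signals and median local backgrounds are intensity values with no normalization, its processed signals are intensity values that the software corrected for background and dye, and its log10 ratio is the processed Cy5 over Cy3 signal. The deposited log10 ratio was used only to check direction, and matched the processed signals within 0.001 on 66.3% to 86.7% of spots. The normalization and gene selection that the authors ran afterwards were not repeated.

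Starting from the median signals, background was corrected with limma 3.58.1 in R 4.3.3 by normexp with an offset of 50, fitted on spots not marked as background outliers (288 to 1624 spots per array were) and applied to all. The log2 Cy5/Cy3 ratios were normalized within arrays by loess with control spots at weight 0. Spots not uniform were left out, repeated spots averaged (39429 probes), and a probe was tested when its Cy5 or Cy3 signal was well above background on 3 or more of the 7 arrays (25162 probes). Symbols came from RefSeq genes of GRCm38.p6 (28330 probes named), and a gene stands for its brightest tested probe. Groups followed the labels. A limma fit with 1 mean per exposure time gave both means and their difference, with Benjamini-Hochberg adjustment over all probes tested. The steps were also run on simulated data with no dye or slide effect added, so that run cannot judge such effects. Channel intensities are after Aquantile scaling, and summed marker levels are log2 of the summed intensities. Folds are on the offset scale and understate dim genes. The precision is limited by the number of arrays.

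Members and lists were chosen with earlier results of these data known. Named from the other lists are up to 2 genes per role list and 1 per marker list at each time, with the smallest adjusted p among those called, and *Lyz2* as the copy of a member. The 3 genes most like each member were computed, and named are all 3 of *Lpo* and the first 2 of *Slpi* and of *Camp*. The alternatives were other background corrections and offsets, the processed signals, median centring, Aquantile, other filters, fits within a time, leaving out each array, the methods' t-test, means over probes and a replicate block.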

Additional observations from a re-analysis of the deposited data

Results flagged for a closer look

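The difference of the log2 ratios, 8 minus 4 weeks, passed limma's test for these members: *Lpo* -2.70, *Lyz1* -0.54, *Defb1* -0.51, *Dmbt1* -0.49, *Wfdc2* -0.34, the dimmer *Camp* probe -0.32, *Reg3g* 0.36 and *Slpi* 0.47. Slide and time cannot be told apart in any of them. Among the named genes of the role lists the ratio was higher at 8 weeks for *Cebpd* (1.80), *Chil3* (1.53), *Ccl28* (1.02), *Nfkbia* (0.96), *Socs3* (0.91), *Wfdc1* (0.89), *Lyg1* (0.84), *Duoxa1* (0.59), *Defb14* (0.48) and *Ano1* (0.42). It was lower at 8 weeks for *S100a8* (-1.01), *Ngp* (-0.82), *Pglyrp1* (-0.81), *Slc22a17* (-0.68) and *Slc26a4* (-0.60). Among the named markers it was lower for *Amy1* (-4.83), *Omp* (-1.32), *Tff2* (-1.24) and *Cyp2f2* (-0.66), and higher for *Obp1a* (1.76), *Cd14* (1.53), *C1qb* (0.64) and *Sprr2d* (0.64). These flagged genes are not every named gene with a difference. *Mucl2* had a log2 ratio of 3.56 at 4 weeks, and no tested serous gland marker exceeded 0.76 at 8 weeks. *Il6* had -2.08 at 4 weeks, and no tested gene of its list was below -0.553 at 8 weeks.

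A single 4-week array stood apart from the other 3 by Dixon's test in 2 of 32 results tested, where chance gives about 1 in 20. They were *Itln1* (log2 ratio 0.49) and *Sprr2d* (-2.26), both on replicate 1, and no probe of the 10 members was among them.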

How the results depend on the processing

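Of 500 values of the 10 members under the alternatives, 458 kept their direction and their side of the threshold, 26 lost the call, 7 gained it and 9 turned sign, none of these 9 for a value that had been called. The number of members called higher at 8 weeks, 4, was 1 with the processed signals, 2 with median centring and 0 with the methods' t-test, and 1 to 4 without 1 array. The number called lower at 8 weeks, 2, was 4 with median centring and 1 with the methods' t-test. The number with a higher ratio at 8 than at 4 weeks, 2, was 1 with the processed signals and 1 with median centring. Replicate numbers did not pair the arrays (correlations of same-numbered arrays -0.0066, -0.0077 and 0.016, own number best for 1 of 3), and with the replicate number as a block 1 member was higher and 3 lower between times. Past the study's thresholds, 2 members were lower at 4 weeks with an offset of 16 and with median centring, and 2 at 8 weeks with median centring, while the methods' t-test gave the same counts of members as limma there.

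Of 77 other genes of the role lists, those lower at 4 weeks numbered 27, those higher at 8 weeks 23, those lower at 8 weeks 12, those higher at 8 than at 4 weeks 25 and those higher at 4 weeks 11. A filter that asked for a measured signal of both dyes on every array left 41 genes, with 16 lower at 4 weeks, 13 higher at 8 weeks and 15 higher at 8 than at 4 weeks. The methods' t-test gave 16 lower and 6 higher at 4 weeks and 12 higher at 8 weeks. Median centring gave 23 lower at 8 weeks, and leaving out 1 array gave 15 to 25 higher at 8 weeks. Over all genes, 56.9%, 54.6% and 47.9% of the calls at 4 weeks, at 8 weeks and between times were higher, and 42.7%, 27.0% and 28.8% with median centring. With the processed signals it was 67.9% at 4 weeks and 35.6% between times. These settings moved array medians to between -0.14 and 0.16 on the log2 scale. The cause was not tested.

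The sign turned in these log2 ratios. With median centring, *Lcn2* was -0.045 at 4 weeks, -0.12 at 8 weeks and -0.072 between times, and *Wfdc2* -0.11 and *Lyz1* -0.29 at 8 weeks. *Reg3g* at 4 weeks was -0.038 with the processed signals, *Lyz1* at 8 weeks -0.010 with normexp on all spots, and *Itln1* at 4 weeks -0.029 as a mean over probes. Without 1 array, *Lyz1* was -0.057 to 0.051 and *Defb1* -0.14 to 0.020 at 8 weeks. Of 703 values of other named genes, 674 kept direction and side of the threshold.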
